A study of Mus musculus with 8 samples.

Results

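The genes described here are the 10 genes *H2-K1*, *H2-D1*, *B2m*, *Tap1*, *Tap2*, *Tapbp*, *Psmb8*, *Psmb9*, *Psmb10* and *Nlrc5*, which were chosen by name as the core of MHC class I presentation and the immunoproteasome. Each of the 10 symbols had a row among the 18635 genes of the table. They were measured in tumor-educated macrophages (TEMs), that is, macrophages grown from bone marrow and then exposed for 24 h to AE17-TCM, tumor-conditioned medium of AE17 mouse mesothelioma cells. Phgdh fl/fl TEMs were represented by 4 RNA-seq libraries, and so were Phgdh fl/fl Cx3cr1-Cre TEMs, called Cre TEMs where short. All samples thus carried the floxed *Phgdh* alleles and all received the tumor medium. In the second genotype the Cre recombinase is driven from the *Cx3cr1* locus (*Cx3cr1* cre/+), and the controls were Cre-negative littermates, so that the deletion of *Phgdh*, the presence of the Cre and the loss of 1 *Cx3cr1* allele cannot be told apart. The mice were C57BL/6, and marrow came from animals aged 6 to 8 weeks and was differentiated for 7 days.

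MHC class I molecules show peptides from inside the cell to CD8+ T cells. A class I molecule is a heavy chain (*H2-K1* and *H2-D1* encode the classical ones of the C57BL/6 mouse) bound to the light chain beta-2 microglobulin (*B2m*). The peptides are cut by the proteasome, whose immune form replaces its catalytic subunits by those of *Psmb8*, *Psmb9* and *Psmb10*. They are pumped into the endoplasmic reticulum by the transporter made of *Tap1* and *Tap2*, and loaded with the help of tapasin (*Tapbp*). *Nlrc5* encodes the transactivator that drives many of these genes, and interferon induces most of them in macrophages.

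Between 38219563 and 47027420 reads were counted on genes per sample, and each of the 10 genes had at least 1345 reads in every sample. *Phgdh*, which checks the labels, had 117 ± 9.82 normalized counts (reads divided by the size factor of the sample) in Phgdh fl/fl TEMs and 27.1 ± 9.39 in Phgdh fl/fl Cx3cr1-Cre TEMs (SD, n = 4 each). *Cx3cr1* itself had 1075 ± 94.2 against 659.8 ± 32.2. All 7 macrophage markers looked up, among them *Adgre1*, *Csf1r* and *Lyz2*, were present, with sums between 973600 and 1076000 normalized counts in all samples. The sums for dendritic cells (*Zbtb46*, *Ccr7* and others) lay between 43.7 and 71.6 in Phgdh fl/fl TEMs and between 66.5 and 91.5 in Phgdh fl/fl Cx3cr1-Cre TEMs, and *Xcr1* and *Cd209a* had no row. For neutrophils only *S100a8* of 7 markers had a row, at 466.7 to 574.7 against 575.7 to 631.3. Sums for T cells, B cells, fibroblasts and mesothelial cells stayed at or below 43.8 in each sample. Of these sums, that of *S100a8* did not overlap between the genotypes and that of the dendritic cells overlapped but reached higher with the Cre, and their part in the results below was not tested.

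Per exon length the levels of the 10 genes spanned a wide range. *B2m* was the highest, at 4514 FPKM (recovered reads scaled to exon length and to all reads on genes of the library) in Phgdh fl/fl TEMs, and was 6th of all genes on this scale. *H2-D1* followed at 1450 and *H2-K1* at 679 FPKM. Then came *Tapbp* at 75.4, *Psmb8* at 47.1, *Tap2* at 28.3, *Psmb10* at 23.5 and *Tap1* at 18.9 FPKM. *Psmb9* at 10.1 and the regulator *Nlrc5* at 7.65 FPKM were the lowest. In Phgdh fl/fl TEMs no gene overlapped with the next in this order. With the Cre, neighbors in this order did not overlap either, but *Psmb10* (20.4 to 21.4 FPKM) and *Tap1* (21.8 to 23.2 FPKM) were in the opposite order. *H2-K1*, *H2-D1* and *B2m* together made up 0.934% to 0.971% of all counted reads in Phgdh fl/fl TEMs, and 1.01% to 1.02% with the Cre.

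**Figure D1:**
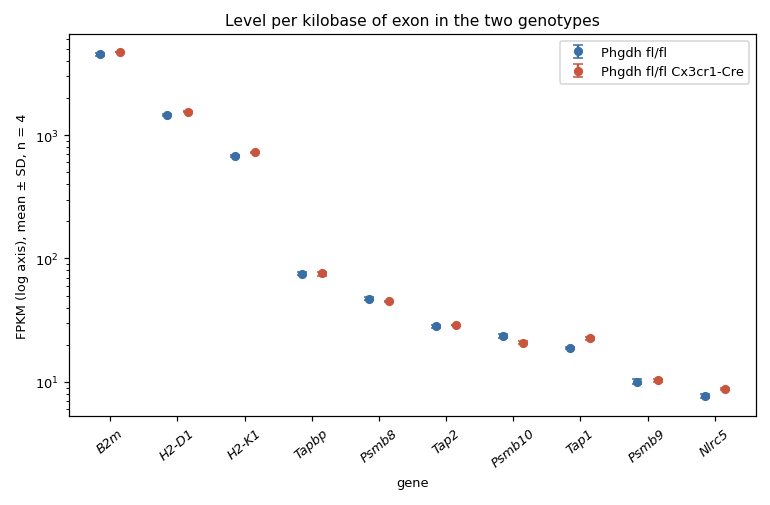
Mean FPKM (log axis) of the 10 genes in Phgdh fl/fl TEMs (blue) and Phgdh fl/fl Cx3cr1-Cre TEMs (red), with SD bars over 4 samples each. The levels run from 4514 FPKM for *B2m* to 7.65 FPKM for *Nlrc5*, and the genotypes lie close together beside this range.

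The comparison of the genotypes asks whether loss of *Phgdh*, the first enzyme of serine synthesis, went with a change of these genes in TEMs. With the Cre, 4 of the 10 genes were higher, 2 were lower and 4 did not pass. *Tap1*, *Nlrc5*, *H2-K1* and *H2-D1* rose, *Psmb10* and *Psmb8* fell, and *B2m*, *Tap2*, *Tapbp* and *Psmb9* did not pass. The test was limma on log2(normalized count + 1) over 13629 genes, with a Benjamini-Hochberg adjusted p under 0.05. By this rule 41% of all tested genes were called, 20.8% higher and 20.3% lower, so that a call as such does not set the 10 genes apart. Their changes were small. The median absolute log2 fold change of the 10 genes was 0.076, against 0.123 over all tested genes, and the median signed log2 fold change was 0.036, against -0.0018. The genotypes were fully separate for 7 of the 10 genes and for 36.7% of the tested genes. All tested genes include those with a mean as low as 10 normalized counts. Each of the 10 genes had at least 1345 reads in every sample, so that these shares and medians are not matched for level. With the filter at a mean of 100, 5281 of 10515 genes were called. In bulk RNA, a different number of cells of a type and a different amount of RNA per cell cannot be told apart.

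*Nlrc5* (ENSMUSG00000074151) is a gene of chromosome 8 (94434356 to 94527272, plus strand, mm10 as for all positions of genes). It had 2946, 2723, 2780 and 2812 normalized counts in Phgdh fl/fl TEMs and 3216, 3225, 3096 and 3140 in Phgdh fl/fl Cx3cr1-Cre TEMs. Every sample with the Cre lay above every sample without it. The mean rose by 12.6%, from 2815 ± 94.6 to 3169 ± 61.9 (SD, n = 4 each), or 0.17 ± 0.03 (SE) on the log2 scale (adjusted p = 7.4e-05 by limma). The genes with the most similar profile over the 8 samples, by Euclidean distance of log2 values centred on each gene's mean, were *Fbxl12* (distance 0.048), *Gapvd1* (0.052) and *Tcirg1* (0.056).

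Of the heavy chains, *H2-K1* (ENSMUSG00000061232, chromosome 17 from 33996017 to 34000347, minus strand) had 83616, 87682, 87259 and 87013 normalized counts in Phgdh fl/fl TEMs. In Cre TEMs it had 90892, 92229, 91059 and 91344. The groups did not overlap, and replicate 1 of the controls lay apart below its 3 fellows. The mean rose by 5.77% (log2 fold change 0.08 ± 0.02 SE, adjusted p = 0.00554 by limma). *H2-D1* (ENSMUSG00000073411, chromosome 17 from 35262730 to 35267499, plus strand) had 157221, 166426, 162784 and 161849 normalized counts in Phgdh fl/fl TEMs. Its values in Cre TEMs were 170469, 171940, 169707 and 169544. Again all samples with the Cre were above those without. The mean of *H2-D1* rose by 5.15% (log2 fold change 0.07 ± 0.02 SE, adjusted p = 0.0174 by limma), and without replicate 2 of the Cre samples the adjusted p was 0.0572. With quantile normalization its log2 fold change was 0.21.

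*B2m* (ENSMUSG00000060802) lies on chromosome 2 from 122147686 to 122153083, away from the heavy chains. It had 163143, 165866, 171629 and 172263 normalized counts in Phgdh fl/fl TEMs and 175617, 173539, 173674 and 173988 in Cre TEMs. The groups did not overlap, but the controls spread widely and the highest of them came close to the lowest Cre sample. The mean was 3.55% higher with the Cre (log2 fold change 0.05, 95% interval 0.00047 to 0.10), which did not pass (limma adjusted p = 0.10). It passed with quantile normalization, scaling to total reads and DESeq2, where the log2 fold change was 0.24, 0.07 and 0.05 and the adjusted p was 1.9e-09, 0.0313 and 0.0461.

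**Figure D2:**
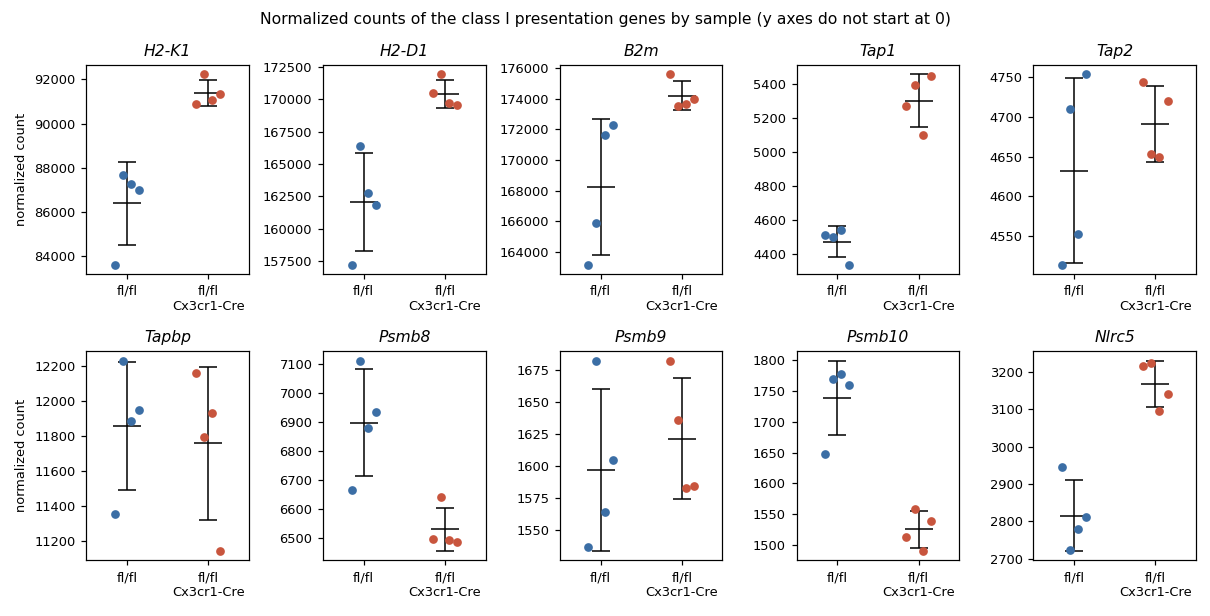
Normalized counts of the 10 genes in each of 4 samples per genotype (points), with the mean and SD (black); the y axes do not start at 0. The genotypes are separate for *H2-K1*, *H2-D1*, *B2m*, *Tap1* and *Nlrc5*, where the Cre samples are above, and for *Psmb8* and *Psmb10*, where they are below, while *Tap2*, *Tapbp* and *Psmb9* overlap.

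Within a sample, the ratio of each heavy chain to the light chain overlapped between the genotypes. The log2 ratio of *H2-K1* to *B2m* normalized counts was -0.96 ± 0.03 in Phgdh fl/fl TEMs and -0.93 ± 0.02 in Phgdh fl/fl Cx3cr1-Cre TEMs (SD, n = 4 each). The difference was 0.03, with an interval by inversion of the exact permutation test from -0.03 to 0.07 (exact two-sided permutation p = 0.114, adjusted over 5 ratios p = 0.286). That of *H2-D1* to *B2m* differed by 0.02, with an interval from -0.05 to 0.08 (exact two-sided permutation p = 0.343, adjusted p = 0.429). With quantile normalization the sign of these differences turned, to -0.11 for *H2-K1* and -0.02 for *H2-D1*.

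The promoters of *H2-K1*, *H2-D1* and *B2m* are shown because these genes are classical targets of *Nlrc5*, which is recruited through the X and Y boxes of class I promoters. Windows from 250 bases before to 50 after the RefSeq start (GRCm38.p6) were found for 8 of the 10 genes, the exceptions being *Tap2* and *Nlrc5*. In 3 of the 8, *H2-K1*, *H2-D1* and *B2m*, the letters TGACG were followed by ATTGG with 20 bases between them, searched on both strands. Of all 32851 promoter windows, 0.0944% hold this arrangement, which was noticed in these windows and then counted. The 30-base stretches are given 5′ to 3′ in the direction of transcription, for *H2-K1* at chr17:34000359-34000388 (minus strand), for *H2-D1* at chr17:35262993-35263022, for *B2m* at chr2:122147609-122147638, for *H2-M3* at chr17:37270188-37270217, for *H2-Q4* at chr17:35379513-35379542, for *H2-Q6* at chr17:35424746-35424775 and for *H2-Q7* at chr17:35439090-35439119 (plus strand). TGACG and ATTGG are in capitals.
H2-K1: TGACGcgcagtcagctcttacccccATTGG
H2-D1: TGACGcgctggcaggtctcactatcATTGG
B2m: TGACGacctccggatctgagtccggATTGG
H2-M3: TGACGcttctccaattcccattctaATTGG
H2-Q4: tgacttactggcagttctcacccccATTGG
H2-Q6: atgacctgtaacagttctcacccctATTGG
H2-Q7: aTGACGtgtaacagttctcacccctATTGG

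*H2-K1* and *H2-D1* shared 23 of 30 bases in these stretches, and *H2-K1* and *B2m* shared 13. Each stretch was cut to end in ATTGG, and those of *H2-K1*, *H2-D1* and *B2m* were picked to begin with TGACG. These letters match by choice and are included in the counts of shared bases. *H2-Q6* and *H2-Q7*, described below, shared 29, and the letters TGACG are in the stretch of *H2-Q7* but not in that of *H2-Q6*. *H2-M3* is shown because its window also holds the arrangement, and the *H2-Q* genes because they rose. The stretch of *H2-D1* lies in the untranslated start of a GENCODE transcript that begins before the RefSeq one. Of the other motifs searched on both strands, CCAAT was in the windows of 6 of the 8 genes and in 37.4% of all windows. The 6 were *B2m*, *H2-D1*, *H2-K1*, *Psmb9*, *Tap1* and *Tapbp*. CCAAT is ATTGG read on the other strand, so that the hits of *B2m*, *H2-K1* and *H2-D1* include the ATTGG printed above. The hits of *Tap1* and *Psmb9* are the same site, in the bases that their windows share. GAAA followed after any 2 bases by GAAA, the core of the interferon-stimulated response element, was in the window of *B2m* and in 3.44% of all windows. GGG followed after any 2 bases by TTTCC, a kappa B motif, was likewise in that of *B2m* and in 1.63% of all windows. A match of letters is a description and not a site of binding.

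Among the loading genes, *Tap1* (ENSMUSG00000037321, chromosome 17 from 34187553 to 34197225, plus strand) showed the largest change of the 10 genes. It had 4511, 4504, 4541 and 4338 normalized counts in Phgdh fl/fl TEMs and 5268, 5394, 5099 and 5447 in Cre TEMs. The gap between the groups was wider than the spread within either of them. The mean rose by 18.5%, from 4473 ± 91.7 to 5302 ± 154.7 (SD, n = 4 each), or 0.24 ± 0.03 (SE) on the log2 scale (adjusted p = 2.4e-07 by limma).

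Its partner in the transporter, *Tap2* (ENSMUSG00000024339, chromosome 17 from 34203527 to 34216321), had 4514, 4710, 4552 and 4754 normalized counts in Phgdh fl/fl TEMs. In Cre TEMs it had 4745, 4653, 4649 and 4720, inside the range of the controls. The log2 fold change of 0.02 (95% interval -0.03 to 0.07) did not pass (limma adjusted p = 0.593). *Tapbp* (ENSMUSG00000024308, chromosome 17 from 33915899 to 33929292) had 11355, 12234, 11887 and 11952 normalized counts against 12164, 11798, 11932 and 11143. The groups overlapped almost wholly (log2 fold change -0.01, 95% interval -0.07 to 0.05, limma adjusted p = 0.764), and its sign changed with quantile normalization, scaling to total reads and log2(FPKM + 1).

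*Tap1* and *Psmb9* are transcribed away from each other from a shared stretch of the MHC, with 226 bases between their RefSeq starts, so that 275 of the 300 bases of their promoter windows are the same. The ratio of *Tap1* to *Psmb9* normalized counts, singled out after its values were seen and given with no test, was 2.93, 2.68, 2.90 and 2.70 in Phgdh fl/fl TEMs. It was 3.13, 3.30, 3.22 and 3.44 in Phgdh fl/fl Cx3cr1-Cre TEMs, above all controls. The ratio of *Tap1* to *Tap2*, singled out in the same way, was 0.999, 0.956, 0.998 and 0.913 against 1.11, 1.16, 1.10 and 1.15, so that it also did not overlap. The annotated exons of *Tap1* and *Psmb9* share 212 bases on opposite strands, 3.87% of those of *Tap1* and 5.79% of those of *Psmb9*. Strand is kept by the library kit, but the strand setting of the counting is not given in the sources used here.

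Of the immunoproteasome subunits, *Psmb10* (ENSMUSG00000031897), which carries the trypsin-like site, is found on chromosome 8 (105935735 to 105938444, minus strand). It had 1648, 1769, 1777 and 1760 normalized counts in Phgdh fl/fl TEMs and 1513, 1559, 1490 and 1539 in Phgdh fl/fl Cx3cr1-Cre TEMs. All Cre samples lay below all controls, the lowest of which, replicate 1, lay apart from the other 3. The mean changed by -12.3%, or -0.19 ± 0.03 (SE) on the log2 scale (adjusted p = 0.000134 by limma). *Psmb8* (ENSMUSG00000024338, chromosome 17 from 34197721 to 34201454), the chymotrypsin-like subunit, had 6667, 7113, 6880 and 6936 normalized counts against 6499, 6643, 6495 and 6489. The groups were separate by a narrow margin, between replicate 1 of the controls and replicate 2 of the Cre samples. *Psmb8* fell by 0.08 ± 0.02 (SE) on the log2 scale (adjusted p = 0.0128 by limma), and without replicate 2 of the controls the adjusted p was 0.056.

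*Psmb9* (ENSMUSG00000096727, chromosome 17 from 34181987 to 34187764, minus strand) had 1537, 1682, 1564 and 1605 normalized counts in Phgdh fl/fl TEMs. In Cre TEMs it had 1682, 1636, 1583 and 1584. The groups overlapped, with the highest sample of each at nearly the same value (log2 fold change 0.02, 95% interval -0.05 to 0.10, limma adjusted p = 0.661). Of the 3 subunits, *Psmb10* and *Psmb8* thus fell and *Psmb9* did not pass, and the differences between their changes were not tested. Of the exon bases of *Psmb8*, 14.73% are shared with an antisense gene, as are 14.1% of those of *Tap2* and 24.92% of those of *Tapbp*. *Tap2* shares 4.36% with another antisense gene. *Tapbp* shares 4.11% with a protein-coding gene on the same strand.

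Each immunosubunit was set against the constitutive subunit whose place it takes. *Psmb7*, the counterpart of *Psmb10*, had 4349, 4862, 4452 and 4467 normalized counts in Phgdh fl/fl TEMs and 4163, 3861, 3767 and 3955 in Cre TEMs. It fell by 0.20 on the log2 scale (limma adjusted p = 6.2e-05), nearly as *Psmb10* did. The log2 ratio of *Psmb10* to *Psmb7* was -1.38 ± 0.06 and -1.37 ± 0.07 (SD, n = 4 each), a difference of 0.01 with an interval from -0.13 to 0.15 (exact two-sided permutation p = 0.771). *Psmb5*, the counterpart of *Psmb8*, fell by 0.15 on the log2 scale (limma adjusted p = 0.00601). The log2 ratio of *Psmb8* to *Psmb5* was 2.36 ± 0.03 against 2.43 ± 0.08 (SD, n = 4 each), a difference of 0.07 with an interval from -0.09 to 0.16 (exact two-sided permutation p = 0.171). *Psmb6*, the counterpart of *Psmb9*, had a log2 fold change of -0.03 and did not pass (limma adjusted p = 0.457). The log2 ratio of *Psmb9* to *Psmb6* differed by 0.05, with an interval from -0.03 to 0.14 (exact two-sided permutation p = 0.171). Adjusted over the 5 ratios, these p-values were 0.771, 0.286 and 0.286 in the same order, and the smallest p that 4 samples against 4 allow is 0.0286. Per kilobase of exon, *Psmb8* stood at 1.32 to 1.49 times *Psmb5* in all 8 samples, *Psmb10* at 0.729 to 0.810 times *Psmb7*, and *Psmb9* at 0.150 to 0.166 times *Psmb6*.

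**Figure D3:**
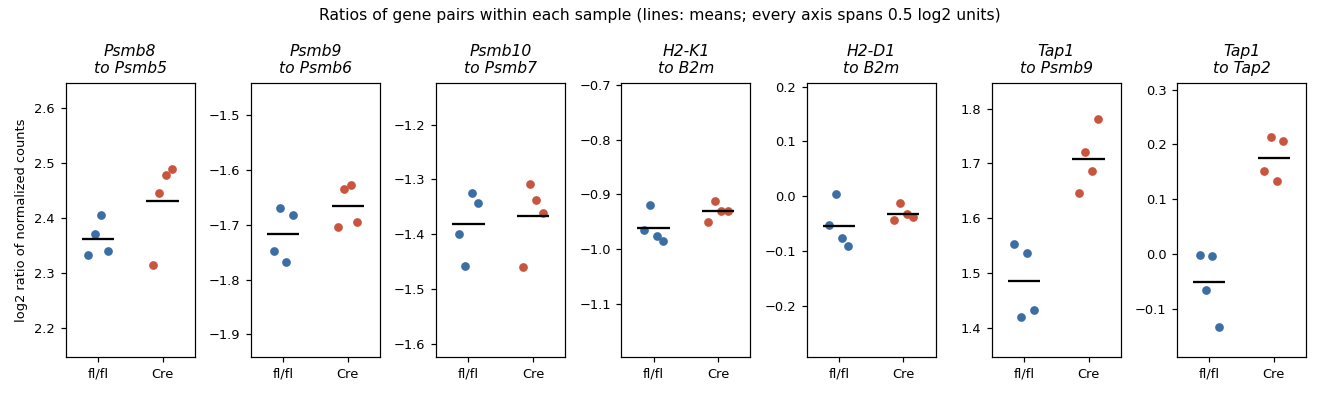
Log2 ratio of the normalized counts of gene pairs within each of 4 samples per genotype (points), with group means (lines); every y axis spans the same range. The first 5 pairs overlap between the genotypes, with *Psmb10* to *Psmb7* differing by 0.01, and the last 2, *Tap1* to *Psmb9* and *Tap1* to *Tap2*, are separate and were chosen after their values were seen.

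In the rest of the proteasome, most of the genes looked up were lower. Of 19 genes of the constitutive 20S core, its activators and its assembly, 16 fell and 1 rose, with a median log2 fold change of -0.17 (all tested genes: 20.3% lower, 20.8% higher, median -0.0018). The lowest were *Pomp*, the maturation factor that assembles the core (-0.24, limma adjusted p = 8.3e-07), and the alpha ring subunits *Psma6* (-0.22) and *Psma5* (-0.22). *Psme1* and *Psme2*, which form the interferon-inducible activator of the immunoproteasome, fell by 0.15 and 0.13 on the log2 scale (limma adjusted p = 8.9e-05 and 0.00133). *Psme4*, a different activator, rose by 0.11. *Psma4* (-0.08) and *Psmb6* did not pass, although *Psma4* did without replicate 1 or 4 of the controls or replicate 1 of the Cre samples (adjusted p = 0.0138, 0.0478 and 0.0348 by limma). *Psma4* also passed with the filter at 100, quantile normalization, the replicate block and replicates 1 and 4 against 2 and 3 as a term (adjusted p = 0.0482, 0.0323, 0.044 and 0.04).

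Several other class I heavy chains had larger fold changes than *H2-K1* and *H2-D1*, a difference that was not tested. Of 19 genes listed, 14 had a row and 11 passed the filter on low values, of which 7 rose and 0 fell, with a median log2 fold change of 0.35 (all tested genes: 20.8% higher, 20.3% lower, median -0.0018). *H2-Q2*, *H2-Q10* and *H2-Bl* stayed below the filter, with means of 8.20 normalized counts or less. *H2-Q6*, a nonclassical heavy chain of the Qa-2 group, had 1506, 1478, 1431 and 1505 normalized counts in Phgdh fl/fl TEMs and 2604, 2476, 2354 and 2481 in Cre TEMs. Its groups lay far apart (log2 fold change 0.74 ± 0.03 SE, adjusted p = 5.3e-13 by limma). *H2-Q7*, of the same group, had 1897, 2066, 1946 and 1855 against 2947, 2969, 2840 and 2876 normalized counts. This was 0.58 ± 0.03 (SE) on the log2 scale (adjusted p = 1.5e-11 by limma). *H2-M2* rose from 162.3 to 268.6 normalized counts (log2 fold change 0.72 ± 0.11 SE, adjusted p = 1.7e-05 by limma).

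The other 4 that rose, named because they are few, were *H2-Q4* (log2 fold change 0.50), *Mr1* (0.35), which presents vitamin B metabolites, *H2-T10* (0.31) and *H2-T22* (0.22). *H2-T23*, which encodes Qa-1, was level at 12280 normalized counts on average in each genotype (log2 fold change 0.00050, limma adjusted p = 0.991). *H2-T24* (-0.02), *H2-M3* (0.07), which presents formylated peptides, and *Cd1d1* (0.40, limma adjusted p = 0.066) did not pass either. *H2-M3* passed without replicate 4 of the controls and *Cd1d1* without replicate 3 (adjusted p = 0.0164 and 0.0151 by limma), and the sign of *H2-T24* turned without replicate 1 or 2 of the controls or 4 of the Cre samples. Some of the heavy chain genes share stretches of sequence as long as a read. Of the 75-base windows (the read length) of *H2-Q6* and *H2-Q7* transcripts, 17.85% and 16.95% occur unchanged in transcripts of other genes, most often *H2-Q7* for the former and *H2-Q10* for the latter. For *H2-T22* and *H2-T10* this share was 18.46% and 16.05%, most often in each other. It was 7.02% for *H2-Q4*, 5.4% for *H2-D1*, 3.1% for *H2-K1* and 0% for *H2-M2* and *Mr1*. How reads with several matches were counted is not given in the sources used here, so that the split between genes that share windows is uncertain.

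**Figure D4:**
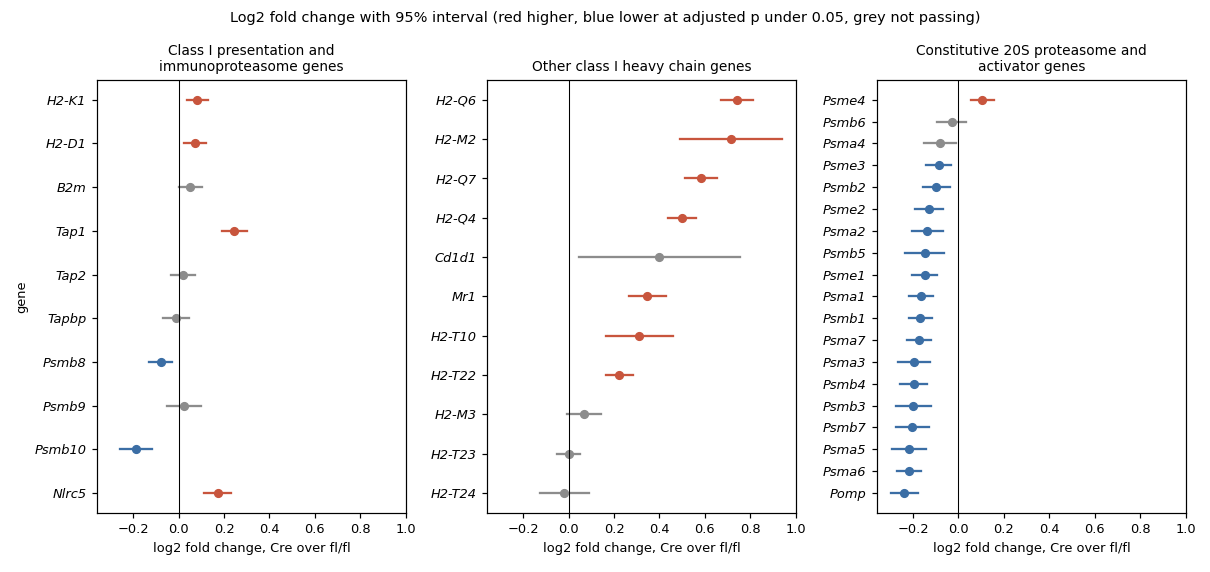
Log2 fold change of Phgdh fl/fl Cx3cr1-Cre over Phgdh fl/fl TEMs (points) with the 95% interval from limma (lines), in red where higher, blue where lower and grey where not passing. The 10 genes lie between -0.19 and 0.24, *H2-Q6* and *H2-M2* reach 0.74 and 0.72, and 16 of the 19 proteasome genes lie below 0 and pass.

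Genes that trim and load peptides split by small amounts. Of 13 listed, 12 were tested, of which 2 rose and 4 fell, with a median log2 fold change of -0.04 (-0.0018 over all tested genes). The 6 called are 50% of those tested, near the 41% of all tested genes. *Npepps*, a cytosolic aminopeptidase, rose by 0.14 and *Erap1*, the aminopeptidase that trims peptides in the endoplasmic reticulum, by 0.07 on the log2 scale (limma adjusted p = 6.2e-05 and 0.0228). The peptidase gene *Thop1* fell by 0.16, and the chaperone genes *Calr*, *Pdia3* and *Canx* by 0.10, 0.07 and 0.06. With quantile normalization all 3 lost their call, *Calr* at -0.04, *Pdia3* at -0.02 and *Canx* at 0.01 on the log2 scale (adjusted p = 0.213, 0.63 and 0.549 by limma). *Erap1* lost its call there too (adjusted p = 0.104 by limma). With eBayes without trend *Calr*, *Pdia3*, *Canx* and *Erap1* lost theirs (adjusted p = 0.0544, 0.137, 0.0702 and 0.0544 by limma). Scaling to total reads took the call from *Pdia3* and *Canx* (adjusted p = 0.0786 and 0.118 by limma). With log2(FPKM + 1), *Pdia3*, *Canx* and *Thop1* lost theirs (adjusted p = 0.133, 0.0687 and 0.0571 by limma). *Tapbpl*, a relative of tapasin, did not pass (-0.0092), and its sign changed with scaling to total reads and log2(FPKM + 1). The count of 6 called genes depended on settings and samples. It was 2 with quantile normalization or eBayes without trend, 2 without replicate 4 of the Cre samples, and 3 and 9 without replicates 4 and 1 of the controls. *Canx* lost its call without replicate 2 or 3 of the controls or 1, 2 or 4 of the Cre samples (adjusted p up to 0.0997 by limma). *Pdia3* did so without replicate 3 or 4 of the controls or 1, 2 or 4 of the Cre samples (up to 0.135). For *Erap1* this held without replicate 4 of the controls or 3 or 4 of the Cre samples (up to 0.0769). *Thop1* lost its call without replicate 4 of either genotype (up to 0.0705).

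Among 25 regulators of class I genes, 6 rose and 9 fell, or 24.0% and 36.0%, against 20.8% and 20.3% of all tested genes, with a median log2 fold change of -0.05 against -0.0018. *Irf8*, a myeloid interferon regulatory factor, fell by 0.20 and *Nfyc*, a subunit of the factor that binds CCAAT, by 0.18 on the log2 scale. *Nfyc* lost its call without replicate 1 of the controls or replicate 2 or 4 of the Cre samples (adjusted p = 0.114, 0.0749 and 0.0574 by limma). It also did not pass with DESeq2 (adjusted p = 0.0519) or with log2(FPKM + 1) (adjusted p = 0.0503 by limma). *Socs3*, a feedback inhibitor of cytokine signaling, rose from 1010 to 1403 normalized counts (log2 fold change 0.47, limma adjusted p = 2.1e-08), and the kinase gene *Jak2* rose by 0.20. *Irf1* (-0.05, limma adjusted p = 0.206) and *Rfx5* (0.08, limma adjusted p = 0.0989), whose product binds the X box, did not pass, although *Rfx5* did with eBayes without trend and log2(FPKM + 1) (adjusted p = 0.0376 and 0.0465).

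*Ciita*, the relative of *Nlrc5* that drives MHC class II genes, had 16.7, 6.44, 23.8 and 11.5 normalized counts in Phgdh fl/fl TEMs and 31.5, 26.0, 20.3 and 30.2 in Cre TEMs. Its groups overlapped at these few reads (log2 fold change 0.96 ± 0.32 SE, adjusted p = 0.0189 by limma). Without replicate 2 of the controls *Ciita* was at 0.65 on the log2 scale with an adjusted p of 0.0755, and without replicate 1 or 4 of the Cre samples the adjusted p was 0.058 and 0.0556. *Ciita* also did not pass with eBayes without trend (adjusted p = 0.0736 by limma). With log2(FPKM + 1) its log2 fold change was 0.04 (adjusted p = 0.173 by limma).

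By position, 7 of the 10 genes lie within 1.35 Mb of the MHC on chromosome 17 of mm10, from the start of *Tapbp* to the end of *H2-D1*. In this stretch 76 other genes were tested, of which 9 rose and 15 fell. This is 31.6%, against 41% of all tested genes, and their median log2 fold change was -0.02. *Psmb9*, *Tap1*, *Psmb8* and *Tap2* are direct neighbors, and of these *Tap1* rose, *Psmb8* fell and *Psmb9* and *Tap2* did not pass.

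**Figure D5:**
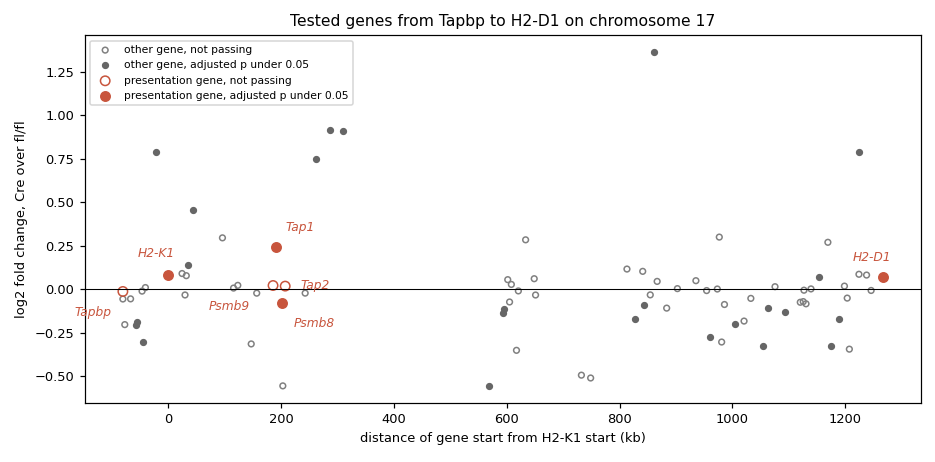
Log2 fold change of the tested genes from *Tapbp* to *H2-D1* against the distance of each gene's start from that of *H2-K1* in kilobases, with the 7 presentation genes in red and filled points for an adjusted p under 0.05. *Tap1* (0.24) stands above its neighbors *Psmb9*, *Tap2* and *Psmb8*, which lie between -0.08 and 0.02.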

How the data were processed

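Libraries of 4 samples per genotype were grouped by GEO's titles, and the series' design text calls them biological replicates. Per the labels and methods, the authors aligned single-end reads of 75 bases to mm10 (TopHat2), counted them with HTSeq 0.6 and ran DESeq2. The deposited sample columns are a signal per gene, namely reads over 1 size factor per library, where the study speaks of FPKM. Whole reads came back for 100% of 144353 values above 0 (within 0.01). Columns of the authors' own comparison (fold changes, errors, statistics and p-values) were not used.

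Genotypes were compared by limma 3.58.1 (R 4.3.3, trend, two-sided) on log2(normalized count + 1) at a mean of at least 10, a scale that understates changes of genes with few reads. Ratios had exact two-sided permutation tests over 70 labelings (scipy 1.17.1). Alternatives were another pseudocount (0.1), no filter or one at 100, quantile normalization, scaling to total reads, log2(FPKM + 1), no trend, a replicate block, replicates 1 and 4 against 2 and 3 as a term, edgeR 4.0.16 and DESeq2 1.42.0 on recovered reads, and leaving out each sample. The fits were tested on simulated counts. There limma recovered 6 of 50 genes with a log2 change of 0.1 and 31 of 50 with 0.25, and it called 8 unchanged genes. The changed genes were drawn at random from all tested genes, also those with few reads. They were far fewer than the 5594 genes called in the data, so that these rates do not give the power of the comparison here. Lengths and positions are from GENCODE M21 (mm10) and promoters from RefSeq (GRCm38.p6).

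The 10 genes and the lists were chosen with earlier results of these data known. Named were the 10 genes, both genes of each ratio, the 3 highest and 3 lowest passing genes per list, genes named for their role, *Phgdh*, and the 3 genes nearest in profile to *Nlrc5*, *H2-K1* and *Psmb8*. *Cx3cr1*, *S100a8*, *H2-Q4*, *Mr1*, *H2-T10*, *H2-T22*, *H2-T24*, *Cd1d1*, *Canx* and *Psma4* were named after their values were seen. A gene that this rule names and a motif that was searched are not reported here.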

Additional observations from a re-analysis of the deposited data

Results flagged for a closer look

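In 3 of the 32 groups of 4 samples looked at, 1 sample lay apart from its fellows, since the gap to the nearest of them as a share of the group's range was past Dixon's 95% critical value. Chance alone gives this for about 1 in 20 groups. For *H2-K1* without the Cre the share was 0.836, with replicate 1 lowest at 83616 normalized counts. For *Psmb10* without the Cre it was 0.87, with replicate 1 lowest at 1648 normalized counts. For *Psmb8* with the Cre it was 0.935, with replicate 2 highest at 6643 normalized counts. Each of these genes also passed when its sample was left out.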

How the results depend on the processing

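*H2-K1*, *Tap1*, *Psmb10* and *Nlrc5* passed in the same direction in all 19 alternatives, and *Tap2*, *Tapbp* and *Psmb9* passed in 0 of them. The cause of the changes below was not tested. With quantile normalization, log2(FPKM + 1) and eBayes without trend, 2, 3 and 2 of the peptide loading genes were called, against 6. Leaving out 1 sample gave 2 to 9 of them, and 1 to 2 of the 10 genes called lower. Quantile normalization turned the log2 differences of *H2-K1* to *B2m* (-0.11) and *H2-D1* to *B2m* (-0.024), and put *Tapbp* at 0.0048 and *Canx* at 0.014. Total read scaling put *Tapbp* at 0.0029 and *Tapbpl* at 0.0058, and log2(FPKM + 1) at 0.0029 and 0.0049. With 1 sample left out, *Psmb10* to *Psmb7* ran from -0.011 to 0.046, *Tapbp* from -0.033 to 0.013, *Tapbpl* from -0.045 to 0.034, *H2-T24* from -0.087 to 0.015 and *H2-T23* from -0.021 to 0.015. Total read scaling called 3146 of 5596 genes higher, against 2830 of 5594.

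Same-numbered samples correlated in their deviations at 0.0628 to 0.126, the labels give them no shared origin, and not every sample correlated best with its own number. With the replicate block, 5597 genes and 6 of the 10 were called, 4 higher and 2 lower. The exact test of ratios within 4 pairs cannot reach 0.05. *Ciita*, at 7 to 31 reads a sample, is limited by depth.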

Other observations

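The genes closest in profile to *H2-K1* over the 8 samples, by the same distance as for *Nlrc5*, were *Sel1l3* (0.035), *Isoc1* (0.037) and *Fuca2* (0.038). Those closest to *Psmb8* were *Dda1* (0.035), *Coro1b* (0.035) and *Otulin* (0.039).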
